A study of Mus musculus with 18 samples.

Results

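The 10 genes described here belong to the pathways that display peptides to T cells. Of them, 7 are in the class II pathway and 3 in the class I pathway of the major histocompatibility complex (MHC). They were chosen by symbol and not by a cutoff on measured values, although earlier results of these data were known. Through their Entrez identifiers they were matched to 10 of the 27179 genes in the deposited read counts. The class II members are *H2-Aa*, *H2-Ab1* and *H2-Eb1*, which encode chains of the peptide-binding dimers, *Cd74*, which encodes the invariant chain, *H2-DMa* and *H2-DMb1*, which encode the peptide editor H2-DM, and *Ciita*, which encodes the class II transactivator. The class I members are *H2-K1* and *H2-D1*, which encode heavy chains, and *B2m*, which encodes the β2-microglobulin light chain. In the genome, 7 lie together on chromosome 17 (GRCm38.p6, mm10), namely *H2-K1* (chr17:33996012-34000619, minus strand), *H2-DMa* (chr17:34119693-34139101, plus), *H2-DMb1* (chr17:34153191-34160229, plus), *H2-Ab1* (chr17:34263227-34269418, plus), *H2-Aa* (chr17:34282744-34287823, minus), *H2-Eb1* (chr17:34305867-34316674, plus) and *H2-D1* (chr17:35263094-35267497, plus). The other 3 lie elsewhere, *Ciita* at chr16:10480014-10531064 (plus strand), *B2m* at chr2:122147687-122153082 (plus strand) and *Cd74* on chromosome 18.

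RNA was sequenced from 6 sorted cell populations of untreated C57BL/6 mice, with 3 libraries for each and 18 in all. In trachea, epithelium was peeled off and sorted into NGFR-positive basal stem cells (BSCs) and NGFR-negative non-basal cells, both from mice 1 to 3. In lung, digested cells of mice 4 to 6 were sorted into EpCAM-positive, CD104-positive airway luminal cells with high CD24 (CD24hi, enriched in ciliated cells) or low CD24 (CD24lo, enriched in club cells), EpCAM-positive, CD104-low alveolar cells, and EpCAM-negative non-epithelial cells. The methods describe the alveolar gate as negative for the leukocyte marker CD45 and the endothelial marker CD31, and the labels do not say whether the other gates were. No group carried a transgene or received a treatment, and trachea and lung differed in animals as well as in organ. The tracheal libraries held 29317215 to 32993621 counted reads each and those of lung 9811503 to 13208897, so rare transcripts were counted with less error in trachea. Marker transcripts followed the gates: summed basal markers reached 4759 to 4980 CPM (counts scaled to a common library size) in BSCs, ciliated markers 2813 to 2984 CPM in CD24hi cells, club markers 245900 to 344400 CPM in CD24lo cells, alveolar type 2 markers 153000 to 171100 CPM in alveolar cells and stromal markers 20830 to 22270 CPM in EpCAM-negative cells. Some gates also held transcripts of other cell types. Club markers summed to 14370 to 16530 CPM in BSCs and 37730 to 49690 CPM in CD24hi cells, above the sums of those gates' own markers. Most of the sum in BSCs was *Cyp2f2*, at a mean of 12930 CPM. Compared with alveolar cells, *Cyp2f2* and *Scgb3a2* were higher in BSCs, but *Scgb1a1* was lower, at 612.7 against 1876 CPM. Alveolar cells had the highest sum of alveolar type 1 markers, at 2257 to 2287 CPM, most of it *Ager* (mean 1561 CPM). Of the other markers in that sum, *Aqp5* and *Cav1* had means of 548.6 and 100.6 CPM, below the 629.6 and 687.5 CPM in BSCs. *Hopx* was at 58.94 CPM, below the 141.5 CPM in CD24lo cells. Alveolar cells also held 644.4 to 1071 CPM of stromal and 105.4 to 212.8 CPM of endothelial markers. Further such transcripts are given beside the results they move with. Library 1 stood apart from libraries 2 and 3 in both tracheal and both airway populations, as did library 2 in alveolar cells.

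Class I molecules are made by nearly all nucleated cells and carry peptides of cytosolic proteins, which the immunoproteasome cuts and the TAP transporter moves into the endoplasmic reticulum. Class II molecules are made constitutively by dendritic cells, B cells and macrophages, and carry peptides of endocytosed proteins. The invariant chain occupies their groove until proteases remove it and H2-DM exchanges the remnant for other peptides. Ciita is required for class II transcription and acts through RFX, which binds the X box of these promoters, and NF-Y, which binds the Y box. Alveolar type 2 cells, the surfactant-producing epithelium of the alveolus, are known to carry class II at steady state.

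The upstream sequences of 5 members are shown because all 5 hold the short motif bound by NF-Y, and 1 of them a motif that among the members was in class I windows only. They are shown beside *H2-Ob*, a class II gene whose RNA did not follow the class II members. Promoter windows of 300 bases around the RefSeq start (GRCm38.p6) were given for 7 of the 10 members, with none for *H2-Ab1*, *Ciita* and *Cd74*. Bases 180 to 30 before the start are printed on the gene's own strand, with capitals for the inverted CCAAT core of the Y box, GATTGG, searched on both strands (CCAATC where it lies on the other strand), and for the NF-κB-like motif GGGGATTC.
H2-Aa, chr17:34287853-34288003, minus strand: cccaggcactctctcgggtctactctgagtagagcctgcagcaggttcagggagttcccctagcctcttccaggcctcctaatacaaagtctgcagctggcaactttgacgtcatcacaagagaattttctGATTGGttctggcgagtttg
H2-Eb1, chr17:34305687-34305837, plus strand: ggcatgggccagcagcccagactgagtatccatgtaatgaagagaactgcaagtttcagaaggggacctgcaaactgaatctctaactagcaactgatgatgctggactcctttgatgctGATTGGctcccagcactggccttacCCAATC
H2-DMb1, chr17:34153011-34153161, plus strand: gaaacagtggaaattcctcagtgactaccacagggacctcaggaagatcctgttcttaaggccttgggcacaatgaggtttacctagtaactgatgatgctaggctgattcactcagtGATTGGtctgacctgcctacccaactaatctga
H2-Ob, chr17:34238725-34238875, plus strand: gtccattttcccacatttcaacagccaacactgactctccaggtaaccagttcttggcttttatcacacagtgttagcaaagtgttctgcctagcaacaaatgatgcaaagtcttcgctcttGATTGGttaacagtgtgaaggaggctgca
H2-D1, chr17:35262914-35263064, plus strand: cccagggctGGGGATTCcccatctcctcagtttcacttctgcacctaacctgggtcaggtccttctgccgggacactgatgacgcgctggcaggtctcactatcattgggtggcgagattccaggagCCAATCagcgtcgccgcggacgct
B2m, chr2:122147507-122147657, plus strand: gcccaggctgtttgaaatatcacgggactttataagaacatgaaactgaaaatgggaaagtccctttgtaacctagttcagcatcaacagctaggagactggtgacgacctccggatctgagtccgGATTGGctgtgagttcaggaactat

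GATTGG began 49 bases before the start in *H2-Aa*, 60 in *H2-Eb1*, 62 in *H2-DMb1*, 58 in *H2-Ob* and 54 in *B2m*, and ended 48 bases before it, on the opposite strand, in *H2-D1*. *H2-Eb1* held a second copy on the opposite strand, *H2-K1* held it within a few bases of the start, and *H2-DMa* held it in one of its windows, 199 bases before the start. The motif was in 16.1% of all 32851 windows of 300 bases. GGGGATTC was in 0.712% of them and, among the members with a window, in *H2-K1* and *H2-D1*. The motifs did not overlap each other in the printed sequences. *H2-Ob* carries GATTGG at a similar distance although, as given below, its RNA was not highest in alveolar cells. These matches describe letters in a window and not a bound site.

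The class II members were between 10.6-fold and 31.3-fold higher in alveolar cells than in each of the other populations compared with them. Levels are given as RPKM, which scales the counts by the gene lengths of the count files and by library sizes adjusted with TMM (a trimmed mean of log ratios between libraries). *Cd74* was at 2605, 2630 and 2861 RPKM in the 3 alveolar libraries. In the other lung gates it was at 128.3, 74.71 and 60.14 RPKM in CD24hi cells, 175.5, 101.9 and 115.4 RPKM in CD24lo cells, and 111.6, 119.9 and 57.91 RPKM in EpCAM-negative cells. In trachea it was at 73.24, 98.28 and 98.33 RPKM in BSCs and 62.29, 30.28 and 45.18 RPKM in non-basal cells. The alveolar libraries stood alone, and below them no population of the 5 was separated from the next in order by *Cd74*. Fewer class II-positive cells and less class II RNA in each cell cannot be told apart in such bulk libraries.

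*H2-Aa*, the α chain of the I-A dimer, was at 1089, 1094 and 1194 RPKM in alveolar cells. Its highest values elsewhere were 75.19, 74.91 and 36.12 RPKM in EpCAM-negative cells and 78.29, 37.66 and 44.69 RPKM in CD24lo cells, and its lowest were 37.23, 17.02 and 27.87 RPKM in non-basal tracheal cells. The order below alveolar cells was EpCAM-negative, CD24lo, BSC, CD24hi and non-basal, each overlapping the next. *H2-Ab1*, the β chain of I-A, was at 670.3 to 741.4 RPKM in alveolar cells and had the same order, from 47.23 ± 18.5 RPKM (SD, n = 3) in EpCAM-negative cells to 21.61 ± 7.67 RPKM (SD, n = 3) in non-basal cells. *H2-Eb1*, the β chain of I-E, was at 310.2 to 336.6 RPKM in alveolar cells and at means of 15.38 to 28.78 RPKM elsewhere. Its partner gene *H2-Ea*, which is not functional in mice of this strain's haplotype, had 1 read in 1 BSC library and 1 in 1 CD24hi library and none in the other 16, and was not tested.

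The peptide editor genes had lower mean levels than all 3 dimer chain genes in every population. *H2-DMa* was at 97.03, 84.59 and 88.93 RPKM in alveolar cells and *H2-DMb1* at 92.85, 88.86 and 97.49 RPKM. In the 3 other lung gates *H2-DMa* had means of 6.819 to 8.482 RPKM, and all 9 of those libraries were above the tracheal libraries, which ranged from 2.653 to 4.362 RPKM. *H2-DMb1* fell in the order CD24hi, CD24lo, EpCAM-negative, BSC and non-basal, and EpCAM-negative cells did not overlap BSCs, nor BSCs non-basal cells. The opposite-strand gene *Brd2* overlaps 10.4% of the exonic bases of *H2-DMa*, and 13.7% of the 100-base stretches of *H2-DMb1* also occur in another gene, so part of their reads is uncertain where counting was not strand-specific or was split between copies.

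*Ciita* followed the genes it is known to control, at a far lower level. It was at 9.194, 8.518 and 9.557 RPKM in alveolar cells, from 594, 527 and 539 reads. Its means elsewhere were 0.3162 RPKM in non-basal cells, 0.4109 RPKM in BSCs, 0.5544 RPKM in CD24hi cells, 0.7442 RPKM in CD24lo cells and 0.772 RPKM in EpCAM-negative cells, each overlapping the next. No library outside the alveolar population was above 0.938 RPKM.

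**Figure D1:**
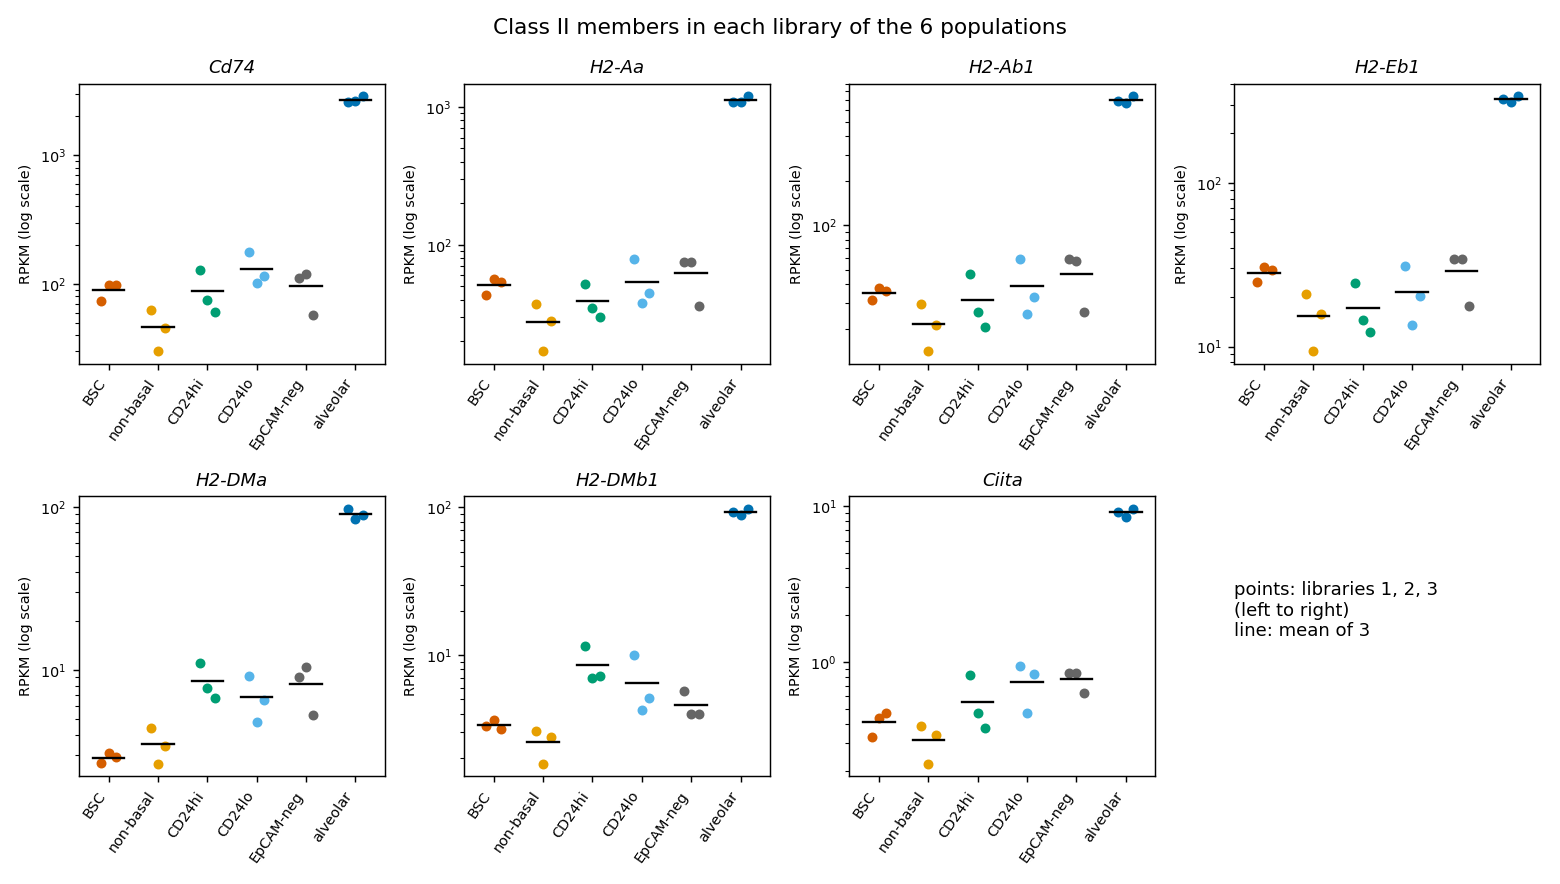
Levels of the 7 class II members in RPKM (log scale) for each of the 3 libraries of the 6 populations, with the mean as a line. In every panel the 3 alveolar libraries sit above all 15 others, by 1 order of magnitude or more in the means, while most of the other populations overlap.

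Ratios between class II members within a library varied less between populations than their levels did. The ratio of *Cd74* to *H2-Aa* RPKM within a library was 2.39 to 2.4 in alveolar cells, 2.24 to 2.71 in CD24lo cells and 2.01 to 2.46 in CD24hi cells. It was 1.68 to 1.84 in BSCs, 1.62 to 1.78 in non-basal cells and 1.48 to 1.6 in EpCAM-negative cells. The 9 lung epithelial libraries therefore all had a higher ratio than the 9 tracheal and EpCAM-negative libraries, without overlap, although the airway gates had less *Cd74* by a factor of 20 or more. *H2-Ab1* to *H2-Aa* was lowest in alveolar cells, at 0.613 to 0.635, and between 0.667 and 0.9 elsewhere. *H2-DMb1* to *H2-DMa* was 0.957 to 1.1 in alveolar cells, 1.1 to 1.24 in BSCs and 0.691 to 0.816 in non-basal cells, and spread most in EpCAM-negative cells, from 0.385 to 0.755. Across the 18 libraries Pearson's r of log2 CPM was 0.908 to 0.998 for the 21 pairs of class II members. These points share libraries and are dominated by the gap between alveolar cells and the rest.

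The class I members varied over a much narrower range and each in its own order. *H2-K1* was at 682.5, 591.6 and 609.7 RPKM in non-basal tracheal cells and at 617.3, 576.6 and 658.6 RPKM in alveolar cells. It was lower in EpCAM-negative cells, at 386.6, 339.7 and 298.2 RPKM, and in CD24lo cells, at 355, 284.5 and 304.6 RPKM. BSCs had 256.3, 226.7 and 230.4 RPKM and CD24hi cells 273.2, 183.7 and 160.2 RPKM. Non-basal and alveolar cells overlapped at the top, EpCAM-negative and CD24lo cells in the middle, and BSCs and CD24hi cells at the bottom, with no overlap between these 3 levels.

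*H2-D1*, the other classical heavy chain, had a different order. Alveolar cells were highest, at 412, 395.8 and 428 RPKM, followed by EpCAM-negative cells at 337.6, 322.9 and 307.8 RPKM and non-basal cells at 262.6, 245 and 244.5 RPKM. CD24lo cells had 207.5, 150.1 and 160.7 RPKM, CD24hi cells 225.6, 138.3 and 124.8 RPKM, and BSCs 148.5, 135.1 and 136.4 RPKM. The first 3 populations were separated from each other and from the rest, and among the last 3 CD24hi cells overlapped both CD24lo cells and BSCs, which did not overlap each other. The ratio of *H2-K1* to *H2-D1* within a library was 2.41 to 2.6 in non-basal cells, above all 15 other libraries, and 0.969 to 1.15 in EpCAM-negative cells, below them. Of the 100-base stretches of *H2-D1*, 4.09% also occur in another gene, and *H2-K1* and *H2-D1* share none.

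*B2m*, whose product pairs with all class I heavy chains, was highest in EpCAM-negative cells at 1290, 1278 and 1231 RPKM. Non-basal cells followed at 583.2, 504 and 530.7 RPKM, then alveolar cells at 456.2, 412.8 and 478 RPKM. CD24lo cells had 505.4, 297.5 and 347.9 RPKM, BSCs 235.8, 231.3 and 225.2 RPKM and CD24hi cells 233.6, 176.4 and 175.2 RPKM. CD24lo cells overlapped alveolar cells and, through their highest library only, non-basal cells. BSCs and CD24hi cells also overlapped. The ratio of *B2m* to the sum of *H2-K1* and *H2-D1* was 1.78 to 2.03 in EpCAM-negative cells and 0.425 to 0.443 in alveolar cells, and the other 12 libraries lay between, at 0.468 to 0.898.

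**Figure D2:**
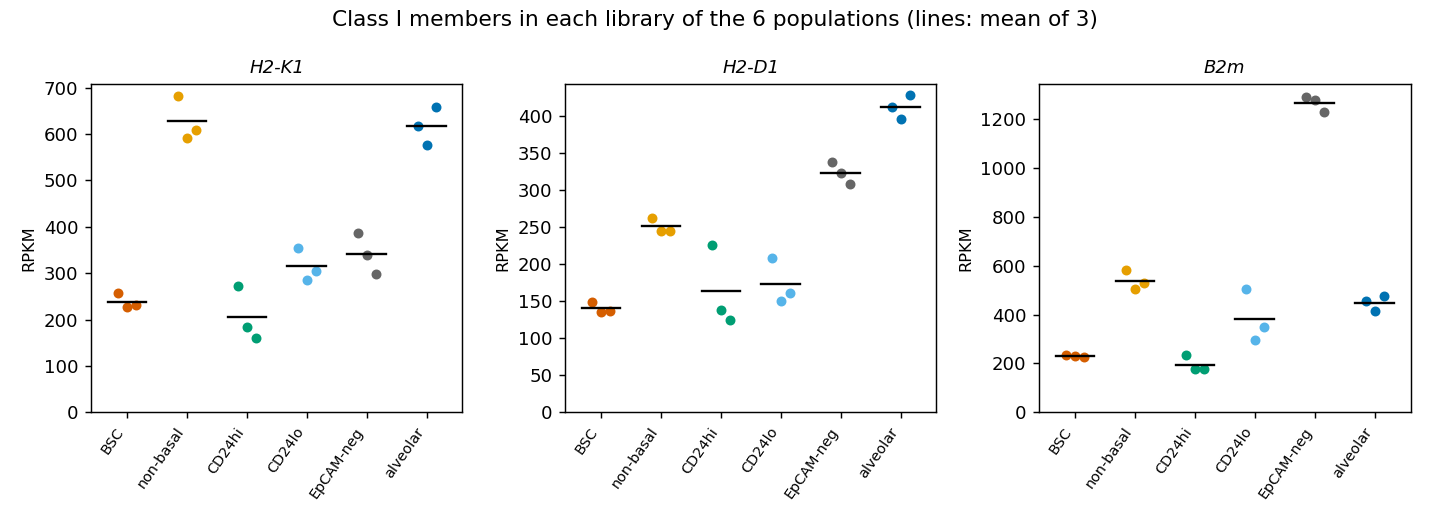
Levels of the 3 class I members in RPKM (linear scale from 0) for each library, with the mean of 3 as a line. *H2-K1* peaks in non-basal and alveolar cells, *H2-D1* in alveolar cells and *B2m* in EpCAM-negative cells, and library 1 of both airway gates is the highest of its 3.

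Between-population differences were tested with edgeR's quasi-likelihood fit of all 18 libraries on 17989 genes, and a gene is called higher or lower at a Benjamini-Hochberg adjusted p-value under 0.05 over those genes. All 10 members were among the genes tested. BSCs against alveolar cells and non-basal against CD24lo cells are comparisons between different mice and organs, and the other 5 are within the same mice. The same 3 alveolar libraries serve in 4 of the 7, so those comparisons are not independent of each other.

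In CD24hi cells all 10 members were lower than in alveolar cells. Of all genes tested, 31.4% were lower and 30.5% higher in this comparison. *Cd74* differed by -4.94 on the log2 scale (SE 0.36; edgeR adjusted p = 1.29e-09), and *H2-DMa*, the class II member with the smallest difference, by -3.41 (SE 0.238). The class I differences were smaller, at -1.59 for *H2-K1*, -1.34 for *H2-D1* and -1.2 for *B2m*. The median over the 7 class II members was -4.24 and over the 3 class I members -1.34, beside -0.00596 for all genes.

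In CD24lo cells 9 of 10 members were lower than in alveolar cells, where 24.2% of all genes were lower and 24.2% higher. *Cd74* differed by -4.36 (SE 0.35; edgeR adjusted p = 1.18e-08), *H2-Aa* by -4.39 and *Ciita* by -3.61. *H2-K1* and *H2-D1* differed by -0.97 and -1.25. *B2m* was the exception, with a log2 difference of -0.23 (SE 0.154) and an edgeR adjusted p of 0.241. Without CD24lo library 1 this became -0.48, with an edgeR adjusted p of 0.00507.

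EpCAM-negative cells had 8 members lower and 1 higher than alveolar cells, with 29.2% of all genes lower and 32.7% higher. *B2m* was 2.82-fold higher, a log2 difference of 1.5 (SE 0.156; edgeR adjusted p = 1.69e-07). The 7 class II members were lower by log2 differences of -3.46 (*H2-DMa*) to -4.81 (*Cd74*), and *H2-K1* by -0.85 (SE 0.16). *H2-D1* did not pass the test, at -0.35 (SE 0.167; edgeR adjusted p = 0.0766), although its libraries did not overlap. With the mouse as a block it was -0.36 and passed, at an edgeR adjusted p of 0.0348, and without mouse 4 it was -0.38, at 0.00204.

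BSCs had all 10 members lower than alveolar cells, with 35.6% of all genes lower and 30.5% higher. *H2-DMa* showed the largest class II difference, at -4.97 (SE 0.251; edgeR adjusted p = 9.09e-12), and *H2-Eb1* the smallest, at -3.52 (SE 0.335). *H2-D1* differed by -1.56, *H2-K1* by -1.38 and *B2m* by -0.96. The median over class II members was -4.46, beside -0.0926 for all genes.

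Within the trachea, class I members and some class II members differed in opposite directions. Compared with non-basal cells of the same mice, BSCs had 3 class II members higher 4 class II members not called, and all 3 class I members lower, with 21.9% of all genes higher and 26.2% lower. *Cd74* was higher by 0.97 (SE 0.309; edgeR adjusted p = 0.0151), *H2-Aa* by 0.9 (SE 0.31; 0.0231) and *H2-Eb1* by 0.87 (SE 0.312; 0.0278). *H2-Ab1* had a log2 difference of 0.69 and did not pass (edgeR adjusted p = 0.109), but did with the mouse as a block, at 0.74 and 0.0493. *H2-DMa* (-0.27), *H2-DMb1* (0.4) and *Ciita* (0.37) did not pass. In the same cells *H2-K1* was 2.64-fold lower in BSCs, a log2 difference of -1.4 (SE 0.161; edgeR adjusted p = 1.37e-06), *B2m* 2.34-fold lower and *H2-D1* 1.79-fold lower. Scaling by library size without TMM raised the share of calls that were higher in BSCs from 45.5% to 72.2% and the median of all genes from -0.0169 to 0.31, and *Cd74* was then 1.32 and *H2-K1* -1.05.

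The class II part of that contrast rested on few libraries. Without non-basal library 2 none of the class II members passed (*Cd74* 0.74, edgeR adjusted p = 0.0797; *H2-Aa* 0.65, 0.115; *H2-Eb1* 0.62, 0.134). *H2-Aa* and *H2-Eb1* also fell short without BSC library 2 (0.82, 0.0694; 0.81, 0.0777), without BSC library 3 (0.87, 0.0589; 0.85, 0.0668) and without non-basal library 3 (0.91, 0.0538; 0.89, 0.0616). The 22 leukocyte markers summed to 65.7, 78.72 and 79.99 CPM in BSCs, where *Ms4a1*, *Cd3d* and *Marco* had no read, and to 82.89, 51.06 and 58.81 CPM in non-basal cells. The class II members summed to 236.9, 305 and 296.9 CPM and to 207.7, 99.42 and 153.3 CPM in the same libraries, so that in both gates the library lowest in leukocyte markers was the lowest in class II. Of those markers 4 were higher in BSCs, *Adgre1* (1.99, edgeR adjusted p = 9.5e-05), *Csf1r*, *Cd209a* and *Fcer1g*, which macrophages or dendritic cells express, and 4 were lower, *Cd3e*, *Cd3d*, *Flt3* and *Xcr1*, which mark T cells and dendritic cells. Over all genes 21.9% were higher and 26.2% lower in BSCs. The part of these markers in the class II difference was not tested.

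Between the airway gates 2 class I members passed the test and no class II member did. CD24hi cells had 2 members lower than CD24lo cells and none higher, with 27.2% of all genes lower and 27.8% higher. *B2m* was lower by -0.98 on the log2 scale (SE 0.155; edgeR adjusted p = 3.67e-05) and *H2-K1* by -0.61 (SE 0.16; 0.00336). The 7 class II members had log2 differences of -0.58 (*Cd74*) to 0.39 (*H2-DMb1*), and none passed the test. *H2-D1* was at -0.09. Scaling by library size without TMM turned *H2-D1* to 0.19 and took *H2-K1* to -0.33 (edgeR adjusted p = 0.0997), with the share of calls that were higher in CD24hi cells at 68.4% instead of 50.5%.

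Library 1 of both airway gates came from mouse 4 and was the highest of its 3 in all 3 class I members and in all 7 class II members. Without CD24hi library 1 the difference passed for *Cd74* (-0.96, edgeR adjusted p = 0.0152), *Ciita* (-0.82, 0.0278) and *H2-D1* (-0.39, 0.00762), while without CD24lo library 1 *H2-DMb1* passed in the other direction (0.88, 0.00642). Leaving out mouse 4 from all gates gave 4 members called, with *H2-DMb1* at 0.61 (edgeR adjusted p = 0.0172) and *H2-D1* at -0.24 (0.0386). Endothelial markers summed to 465.4, 237.5 and 153 CPM in CD24hi cells and to 693, 412 and 381 CPM in CD24lo cells, highest in library 1 of both, and leukocyte markers to 84.14, 70.01 and 55.53 CPM and to 79.64, 46.54 and 80.01 CPM. The sum of alveolar type 2 markers was also highest in library 1 of both, at 2520, 1480 and 1593 CPM in CD24hi cells and 8167, 6072 and 7856 CPM in CD24lo cells. Of these markers only *Sftpc* was highest in library 1 of both gates. *Sftpa1* and *Abca3* were highest in library 1 of CD24hi cells but lowest in that of CD24lo cells, and *Lamp3* the reverse. In CD24lo cells *Abca3* was at 14.2%, 17% and 16.9% of its mean alveolar level. The part of these other cell types in the class I and II levels was not tested. Mouse 4 was not the highest of the 3 in *Cd74* among the alveolar libraries.

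Non-basal tracheal cells and lung CD24lo cells differed in both classes, in opposite directions. Both were rich in the club cell product *Scgb1a1*, though at unequal means of 28170 and 280100 CPM. Non-basal cells had all 3 class I members higher and 6 class II members lower, with 25.3% of all genes higher and 27.8% lower. *H2-K1* was 2-fold higher (SE 0.16 on the log2 scale; edgeR adjusted p = 5.6e-05), and *H2-D1* and *B2m* had log2 differences of 0.54 and 0.49. *Cd74* was lower by -1.51 (SE 0.314; edgeR adjusted p = 0.000631), *H2-DMb1* by -1.35 and *Ciita* by -1.23, and *H2-Eb1* did not pass, at -0.49 (0.209). *H2-Ab1* was at the margin, at -0.86 with an edgeR adjusted p of 0.0488, and fell short with limma voom (0.0543), by library size without TMM (0.0594) and in a fit of those 6 libraries (0.0611).

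Here too single libraries carried part of the result. Without CD24lo library 1, *H2-Aa* (-0.59, edgeR adjusted p = 0.134), *H2-Ab1* (-0.42, 0.345) and *H2-DMa* (-0.68, 0.0706) no longer passed. Without non-basal library 2 *H2-Aa* (-0.72, 0.0781) and *H2-Ab1* (-0.63, 0.182) did not, and *H2-Ab1* also fell short without non-basal library 3 (-0.84, 0.105) or CD24lo library 3 (-0.98, 0.0514). *H2-D1* and *B2m* fell short without CD24lo library 2 (0.43, 0.0669; 0.33, 0.0842) or CD24lo library 3 (0.48, 0.0507; 0.42, 0.0588). Tracheal libraries held 0.9131 to 2.052 CPM of endothelial markers in the non-basal gate, against 381 to 693 CPM in CD24lo cells, and alveolar type 2 markers summed to 1100 to 1122 CPM against 6072 to 8167 CPM. Stromal markers summed to 11.13 to 48.21 CPM against 302.9 to 496.5 CPM. Of the 22 leukocyte markers 7 were lower and 0 higher in non-basal cells (27.8% and 25.3% of all genes). Their sums overlapped, at 51.06 to 82.89 CPM against 46.54 to 80.01 CPM. The part of those transcripts was not tested.

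**Figure D3:**
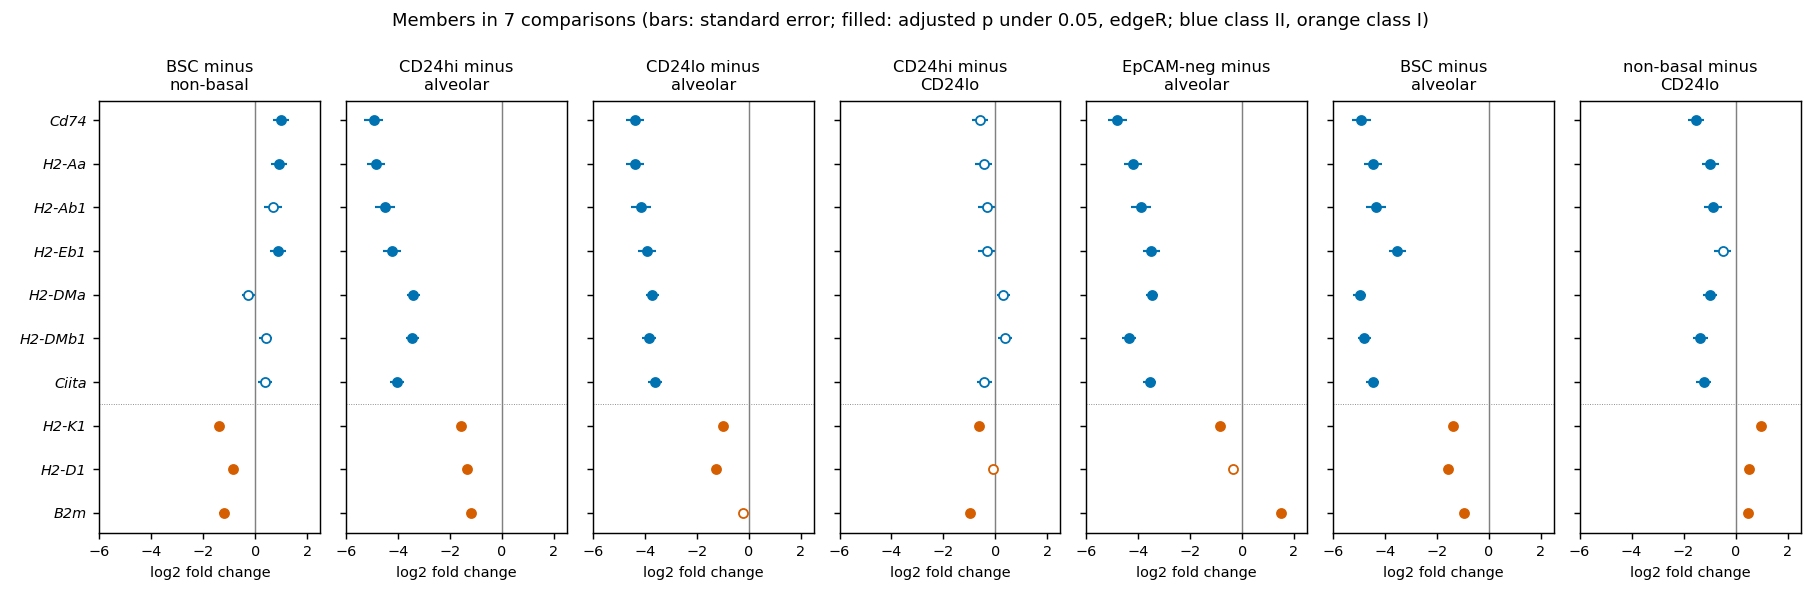
Log2 fold change (horizontal axis) of each member in the 7 comparisons, with bars for the standard error and filled points for an edgeR adjusted p-value under 0.05. Class II members (blue) lie between -3.41 and -4.97 in the 4 comparisons with alveolar cells, and class I members (orange) between -1.59 and 1.5; in the tracheal comparison the class I members lie left of 0 and the class II members other than *H2-DMa*, which changes sign without TMM, lie right of it.

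Alveolar libraries combined high class II RNA with few leukocyte transcripts. Leukocyte markers summed to 40.09, 71.5 and 53.2 CPM in the alveolar libraries, while the class II members summed to 6460, 6436 and 7020 CPM. In EpCAM-negative libraries the leukocyte sum was 222, 288.5 and 137.7 CPM and the class II sum 385, 392.8 and 193.9 CPM, with library 3 lowest in both. *Ptprc*, which encodes the CD45 used to gate leukocytes out, was at 0.451, 1.22 and 0.891 RPKM in alveolar cells and at 5.29, 7.58 and 2.08 RPKM in EpCAM-negative cells, of whose 22 leukocyte markers 19 were higher and none lower than in alveolar cells. Each of the 22 markers had at least 1 read among the alveolar libraries. Against alveolar cells 1 marker was higher and 1 lower in CD24hi cells, none differed in CD24lo cells, and 3 were higher and 5 lower in BSCs. Over all genes 32.7% were higher and 29.2% lower in EpCAM-negative cells and 30.5% and 31.4% in CD24hi cells. The shares were 24.2% and 24.2% in CD24lo cells and 30.5% and 35.6% in BSCs.

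Alveolar type 2 transcripts were also present in the other lung gates. The 4 alveolar type 2 markers were at unequal shares of their mean alveolar level. In CD24lo cells the surfactant protein genes *Sftpc* and *Sftpa1* reached 1.73% to 3.65% and 11.2% to 14%, the lamellar body genes *Lamp3* and *Abca3* 1.66% to 2.96% and 14.2% to 17%, and *Cd74* 3.78% to 6.51%. In CD24hi cells *Sftpc* reached 0.527% to 1.17%, *Sftpa1* 2.01% to 2.62%, *Lamp3* 0.57% to 0.714%, *Abca3* 9.67% to 12.3% and *Cd74* 2.23% to 4.75%. In these gates the share of *Cd74* lay above that of *Sftpc* and *Lamp3* and below that of *Abca3*. In EpCAM-negative cells the 4 markers ranged from 0.317% (*Sftpc*) to 3.19% (*Abca3*) and *Cd74* from 2.15% to 4.44%. In trachea *Sftpc* and *Lamp3* were at or below 0.0148%, *Sftpa1* at 0.0632% to 0.134% in BSCs and 3.27% to 3.29% in non-basal cells, and *Abca3* at 4.45% to 4.59% and 7.54% to 8.3%, beside 2.71% to 3.64% and 1.12% to 2.31% for *Cd74*. How much of the class II RNA of these gates came from alveolar cells or leukocytes was not tested.

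**Figure D4:**
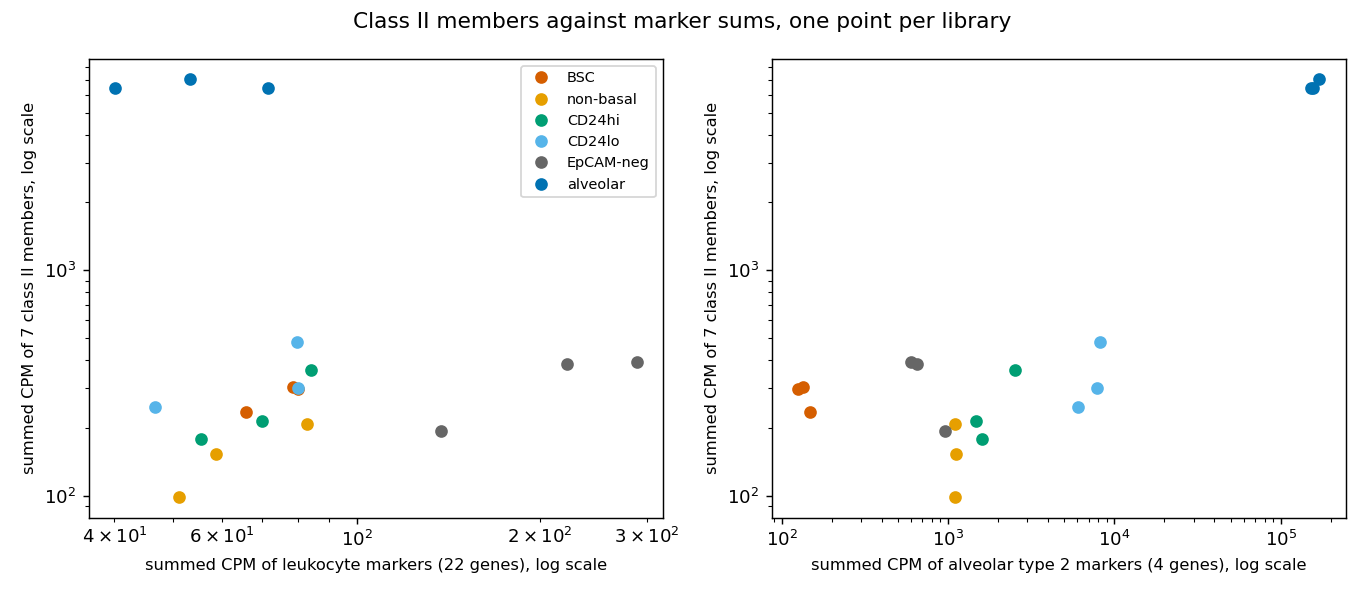
Summed CPM of the 7 class II members (vertical, log scale) against summed CPM of 22 leukocyte markers (left) and 4 alveolar type 2 markers (right), both on log scales, with 1 point per library. The alveolar libraries are highest in class II, at 6436 to 7020 CPM, with 40.09 to 71.5 CPM of leukocyte markers, and EpCAM-negative libraries have the most leukocyte markers, 137.7 to 288.5 CPM, with 193.9 to 392.8 CPM of class II.

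Other genes of the class II pathway shared the alveolar pattern only in part. Of 17 listed, 16 were tested. In CD24lo cells 7 were lower and 2 higher than in alveolar cells, where 24.2% of all genes were lower and 24.2% higher. In CD24hi cells 6 were lower and 3 higher (31.4% and 30.5% of all genes). In EpCAM-negative cells 5 were lower and 6 higher (29.2% and 32.7% of all genes). Their medians were -0.19 in CD24hi, -0.269 in CD24lo and 0.0872 in EpCAM-negative cells, beside -0.00596, 0.0257 and 0.0116 for all genes. In BSCs 7 were lower and 3 higher than in alveolar cells (35.6% and 30.5% of all genes), with a median of -0.304 beside -0.0926. Between the tracheal gates 3 were higher and 2 lower in BSCs (21.9% and 26.2% of all genes). Between the airway gates 5 were higher and 2 lower in CD24hi cells (27.8% and 27.2% of all genes). In non-basal cells 1 was higher and 3 were lower than in CD24lo cells (25.3% and 27.8% of all genes).

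*Ifi30*, the lysosomal thiol reductase that opens disulfide bonds of antigens, was highest in alveolar cells like the class II members. It was at 149, 153.5 and 162.6 RPKM in alveolar cells and at most 61.55 RPKM in any other library, and was lower in all 4 populations compared with alveolar cells, by -1.53 (CD24hi) to -2.54 (EpCAM-negative). *H2-Eb2*, a class II β-like gene, had 43, 27 and 20 reads in the alveolar libraries, was lower in CD24hi (-3.29, edgeR adjusted p = 0.000245) and CD24lo cells (-3.35, 0.000621), and had 0, 1 and 1 reads in BSCs. *Lgmn*, an asparaginyl endopeptidase of the endosome, was at 73.55 to 79.51 RPKM in alveolar cells, lower in both airway gates and in BSCs, and higher in EpCAM-negative cells at 118.1 to 123.2 RPKM.

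Genes for the inhibitor of H2-DM followed a different order. *H2-Ob* was at 4.902, 5.164 and 1.084 RPKM in EpCAM-negative cells, lowest in the library lowest in leukocyte markers, and at 0.462, 0.62 and 0.227 RPKM in alveolar cells. It was higher than in alveolar cells in EpCAM-negative cells (3.06, edgeR adjusted p = 3.98e-05) and CD24hi cells (1.57, 0.0168), and lower in BSCs (-2.36, 0.00571). *H2-Oa* had 2 reads in all alveolar libraries together and 21, 19 and 5 in the EpCAM-negative libraries. *H2-DMb2*, the paralogue of *H2-DMb1*, had 18 to 53 reads in EpCAM-negative and 20 to 43 in alveolar libraries, and 10.3% of its 100-base stretches occur in another gene.

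Proteases and transcription factors of the pathway had orders of their own. *Ctss*, which trims the invariant chain in most antigen-presenting cells, was at 1.886, 8.421 and 4.023 RPKM in alveolar cells and at 10.26, 12.7 and 12.84 RPKM in BSCs, where it was higher (1.32, edgeR adjusted p = 0.00578). *Ctsl* was at 393.3 to 396.3 RPKM in EpCAM-negative cells and 75.35 to 87.37 RPKM in alveolar cells. *Rfx5*, the DNA-binding subunit of RFX, was at 4.859, 5.074 and 6.145 RPKM in alveolar cells and at 6.44 to 7.251 RPKM in the airway gates, where it was higher in CD24hi (0.4, edgeR adjusted p = 0.00157) and CD24lo cells (0.33, 0.01), and it was lower in EpCAM-negative cells (-0.47, 0.000436). *Nfya*, a subunit of NF-Y, was lower in CD24hi (-0.8), CD24lo (-0.73) and BSCs (-0.45) than in alveolar cells, and did not pass the test in EpCAM-negative cells (0.1, edgeR adjusted p = 0.275).

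Of 26 other genes of the class I pathway tested, 16 were lower and 1 higher in BSCs than in non-basal cells, where 26.2% of all genes were lower and 21.9% higher, with a median of -0.489 beside -0.0169 for all genes. The immunoproteasome subunits *Psmb8* (-1.02, edgeR adjusted p = 0.000337), *Psmb9* (-1.12, 0.000632) and *Psmb10* (-0.65, 0.00761), the class I transactivator *Nlrc5* (-0.91, 0.00649) and the non-classical heavy chain *H2-T23* (-1.01, 0.00093) were among those lower, while *Tap1*, a TAP subunit, did not pass (-0.13, 0.646). The gene that was higher was *Cd1d1*, which presents lipids (1.16, edgeR adjusted p = 0.00174). Scaled by library size without TMM, 11 of the 26 were called in this comparison.

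Compared with alveolar cells, the class I pathway had 14 of 26 lower and 2 higher in CD24hi cells (31.4% and 30.5% of all genes) and 19 lower and 2 higher in BSCs (35.6% and 30.5%). In CD24lo cells 7 were lower and 3 higher, a share of lower genes near the 24.2% of all genes. In EpCAM-negative cells 14 were higher and 5 lower (32.7% and 29.2% of all genes), with a median of 0.555 beside 0.0116. Those lower included *Psme1* (-1.4), a proteasome activator subunit, and *H2-Q2* (-4.83), a non-classical heavy chain of the Q region with 3, 7 and 6 reads in EpCAM-negative and 125 to 137 in alveolar libraries. *H2-Q6*, *H2-Q7* and *H2-T22* share 10.8%, 17.2% and 12.4% of their 100-base stretches with other genes, so their counts are uncertain. Between the airway gates 11 were lower and 2 higher in CD24hi cells (27.2% and 27.8% of all genes), and 8 in all were called without CD24hi library 2 or library 3. Non-basal cells, in which all 3 class I members were higher, had 8 lower and 1 higher than CD24lo cells (27.8% and 25.3% of all genes). The share of lower genes was near that of all genes. The median was above 0, at 0.0184 beside -0.0371, and 5 were called without non-basal library 2.

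*Mr1*, which presents vitamin B metabolites to mucosal-associated invariant T cells, differed from the class I members in CD24hi cells. It was at 48.61, 68.44 and 78.4 RPKM in CD24hi cells and 42.12, 39.22 and 42.43 RPKM in EpCAM-negative cells, and at 4.812, 4.621 and 4.023 RPKM in alveolar cells. CD24hi cells, lowest of the 6 in mean *H2-K1* and *B2m*, were highest in *Mr1*, with a log2 difference of 3.86 from alveolar cells (SE 0.195; edgeR adjusted p = 1.15e-11) and 2.29 from CD24lo cells (SE 0.177; 8.42e-09). Library 1, the highest of the CD24hi libraries in class I and II members, was the lowest of them in *Mr1*.

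Genes of the interferon response, which induces *Ciita*, *Nlrc5* and class I genes, were not highest in alveolar cells. The 25 listed genes summed to 976.4 to 1023 CPM there, 1968 to 2042 CPM in EpCAM-negative cells 1273 to 1352 CPM in non-basal cells, 1055 to 1152 CPM in BSCs, 931.5 to 1040 CPM in CD24lo cells and 814.2 to 938.2 CPM in CD24hi cells. Compared with alveolar cells, 23 were higher and 2 lower in EpCAM-negative cells, 9 higher and 5 lower in CD24lo cells, 5 higher and 7 lower in CD24hi cells, and 10 higher and 6 lower in BSCs. Over all genes 24.2% to 32.7% were higher and 24.2% to 35.6% lower in these comparisons, and the count in CD24hi cells was below the share of all genes in both directions. BSCs had 14 lower and 5 higher than non-basal cells (26.2% and 21.9% of all genes), with a median of -0.376 beside -0.0169. *Irf7* (-1.76), *Irf8* (-1.5) and *Bst2* (-1.79), all interferon-regulated, had the 3 largest decreases among those with a mean of at least 1 CPM. The 3 largest increases by the same rule were those of *Gbp2* (1.17), *Socs1* (1.13) and *Jak2* (0.35). Without TMM 12 of the 25 were called in that comparison. CD24hi cells had 11 lower and 2 higher than CD24lo cells (27.2% and 27.8% of all genes). Non-basal cells had 11 higher and 8 lower than CD24lo cells (25.3% and 27.8% of all genes), the share lower near that of all genes.

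Costimulatory genes, whose products act beside class II in T cell activation, were each in a different order. *Cd80*, a ligand of CD28, was at 0.155, 0.162 and 0.119 RPKM in alveolar cells, from 3, 3 and 2 reads, and at 6.621, 8.057 and 8.216 RPKM in BSCs, where it was higher by 5.67 (SE 0.329; edgeR adjusted p = 6.12e-11). *Cd86*, the other CD28 ligand, was at 0.243, 0.435 and 0.159 RPKM in alveolar cells, was higher in EpCAM-negative cells (2.16, edgeR adjusted p = 0.00212), and did not pass in CD24hi cells, CD24lo cells or BSCs (0.385, 0.447 and 0.336). *Icosl*, the ICOS ligand, was lower than in alveolar cells in CD24hi cells (-1.48) and higher in EpCAM-negative cells (4.43) and BSCs (2.5). *Vtcn1*, an inhibitory B7 homologue with 2, 6 and 1 reads in alveolar cells, was also higher in CD24hi (4.74), CD24lo (7.63) and BSCs (7.86), and *Tnfsf9*, the 4-1BB ligand, was lower in all 4 populations compared with alveolar cells, by -1.85 to -5.67. *Cd274*, which encodes the inhibitory ligand PD-L1, was highest in CD24hi cells at 12.75, 11.44 and 10.96 RPKM, against 0.694 to 1.01 RPKM in alveolar cells. Of the 10 costimulation genes 9 were tested, and 6 were higher and 1 lower in EpCAM-negative than in alveolar cells (32.7% and 29.2% of all genes). Against alveolar cells 3 were higher and 3 lower in CD24hi cells, 3 higher and 2 lower in CD24lo cells and 3 higher and 3 lower in BSCs. In the last 3 of these the counts were near the 24.2% to 30.5% of all genes that were higher and 24.2% to 35.6% lower. BSCs had 4 higher and 3 lower than non-basal cells (21.9% and 26.2% of all genes). CD24hi cells had 2 higher and 3 lower than CD24lo cells (27.8% and 27.2% of all genes), and non-basal cells 3 higher and 3 lower (25.3% and 27.8% of all genes).

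Among the genes whose levels were most like the class II profile, over 18 libraries and out of 10551 genes with at least 10 CPM on average, were *Elovl1* (Pearson's r = 0.983), *Fabp5* (0.971), *Epha7* (0.966) and *Etv5* (0.962). *Fabp5* (108 CPM in alveolar cells and at most 2.51 CPM elsewhere) and *Epha7* (62.1 CPM and at most 3.4 CPM) met the 10 CPM minimum only through the alveolar libraries, so their likeness follows in part from that minimum. *Elovl1*, a fatty acid elongase, had a mean of 2160 CPM in alveolar cells and 54.4 to 112 CPM elsewhere, and *Etv5*, a transcription factor of alveolar type 2 cells, 711 CPM and 1.85 to 20.5 CPM. For the class I profile they were *Slc39a7* (0.949), *Prrc1* (0.947), *Ccm2* (0.939), *Dap* (0.935) and *Msrb1* (0.932). *Slc39a7*, a zinc transporter, had means of 87.7 CPM in CD24hi cells to 208 CPM in alveolar cells. Among themselves the 3 class I members had pairwise r values of 0.527 to 0.797.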

How the data were processed

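The deposited values were raw counts per Entrez gene, with a gene length and without normalization, which the authors made by mapping single reads to mm10 (Rsubread) and assigning them with featureCounts and its in-built RefSeq annotation. Base calling by bcl2fastq 1.8.4 is named in the submitters' processing notes. Settings for strand and for reads that match several genes are not given in the sources used here. A pooled table repeated the per-library values and was left aside. NCBI's GRCm38.p6 annotation supplied symbols and coordinates for 25275 of 27179 identifiers, and 0 rows named no gene. Promoter windows are RefSeq sequences, and exon overlaps and shared 100-base stretches were computed from GENCODE.

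Genes exceeding 0.2 CPM in 3 or more libraries (17989), the filter of the study's methods, were scaled by TMM (factors 0.871 to 1.2) and tested with edgeR 4.0.16 (glmQLFit, glmQLFTest; R 4.3.3) in one fit of 18 libraries with a mean for each population. The standard error is the size of the log2 fold change divided by the square root of F. The study used limma voom, which was run as an alternative (limma 3.58.1), beside DESeq2 1.42.0, other scalings and filters, fits restricted to the 6 libraries of a comparison, a mouse block and leaving out each library. Leaving out mouse 4 was added after the data were seen. The code was tested on simulated data with known changes.

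The members and gene lists were chosen with earlier results of these data known. All 10 members are named in each comparison. Of the class I and II pathway lists any gene may be named, and of the interferon and costimulation lists the 3 largest changes each way among called genes averaging 1 CPM or more. The levels of *Cd86*, the cell type markers named beside results and the ratios between members were chosen after their values were seen. Most alike genes are the 5 with the highest Pearson's r with the mean of the standardised members. One of them is not reported here.

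Same-numbered libraries within an organ come from 1 mouse by the labels, so the numbers pair them. Correlations of their deviations from the group means were -0.059 to 0.34 over 15 pairs, and 5 exceeded 0.1. Replicate libraries are separate mice and differed by more than counting noise (chi-square per degree of freedom at least 3.67).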

Additional observations from a re-analysis of the deposited data

How the results depend on the processing

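No class II member changed its call against alveolar cells under any alternative run (limma voom, DESeq2, other scalings and filters, fits of only the libraries compared, the replicate block, leaving out each library, and without mouse 4). Over all 7 comparisons and 10 members, 971 of the repeated fold changes kept direction and call, 24 lost and 18 gained the call, and 7 changed sign. No value of the opposite sign passed the test: with library size alone *H2-DMa* moved to 0.0719 in BSCs against non-basal cells and *H2-D1* to 0.191 between the airway gates, and leaving out 1 library moved *H2-D1* between -0.391 and 0.077, *H2-Ab1* between -0.758 and 0.103 and *H2-Eb1* between -0.683 and 0.0183 in CD24hi against CD24lo cells. Why was not tested. In that comparison 2 members were called, 1 with library size alone, 4 without mouse 4 and 2 to 5 when each library was left out. In BSCs against non-basal cells 6 were called, and 3 to 7 when each library was left out.

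Library size alone moved the median of all genes to 0.31 in BSCs against non-basal cells, to 0.29 in CD24hi and 0.292 in BSCs against alveolar cells, to 0.193 in EpCAM-negative cells and to 0.214 between the airway gates, and the share of calls that were higher from 49.2% to 65.4% in CD24hi and from 46.1% to 64.5% in BSCs against alveolar cells. The replicate block changed, besides *H2-Ab1* and *H2-D1* as given above, the call of *H2-Eb1* in non-basal against CD24lo cells (-0.49, edgeR adjusted p = 0.00604), where equal numbers mean different mice, and no other member's call. Class II pathway calls in BSCs against non-basal cells rose from 5 to 10 with library size alone and to 8 in a fit of those libraries, and class I pathway calls between the airway gates fell from 13 to 7 and 5. Precision was limited by 3 libraries a group, with standard errors of 0.238 to 0.392 for class II members against alveolar cells.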
